A study of Mus musculus with 12 samples.

Results

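The genes described here are 10 factors of naive pluripotency, Esrrb, Klf2, Klf4, Klf5, Tfcp2l1, Tbx3, Zfp42, Prdm14, Dppa3 and Tcl1, followed through an RNA sequencing study of mouse embryonic stem cells (mESCs). They were taken by symbol, 10 of the 54555 genes in the expression table, and each symbol had a single row. All 10 also passed the filter on low values, which asked for 1 FPKM (fragments per kilobase of gene, scaled to library size) or more in at least 3 of 12 libraries and left 14866 genes for testing. Prdm14 reached that level in 10 of the 12 libraries and the other 9 factors in all 12.

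Naive pluripotency is the state of the preimplantation epiblast, which mESCs keep in culture. A network of transcription factors holds it in place downstream of leukemia inhibitory factor (LIF), whose signal runs through STAT3 to Klf4 and Tfcp2l1 and through the PI3K-AKT pathway to Tbx3. When cells leave this state, most of the network is switched off while the core factors Pou5f1 and Sox2 persist for longer. Members of the set also have other roles: Prdm14 and Dppa3 act in primordial germ cells, and Tcl1 is a coactivator of the kinase AKT.

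The cells were R1, an established mESC line grown on gelatin with serum and LIF. RA_OGTi cells were pre-treated with Ac45SGlcNAc, an inhibitor of O-GlcNAc transferase (OGT), used at 25 µM for 48 h. They were then given 1 µM retinoic acid (RA) over 48 h to differentiate, while RA_control cells had a vehicle pre-treatment before the same RA step. The mESC_OGTi cells received 25 µM inhibitor for 48 h and stayed undifferentiated, and mESC_control cells were undifferentiated without inhibitor. Each group had 3 libraries. The RA step was done in medium without LIF, so RA and the loss of LIF cannot be told apart, and the sources used here do not state if inhibitor stayed in the medium at that step. Nothing in the labels says whether replicates came from separate cultures, so each p-value reflects only how far these libraries spread, which can be technical variation.

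Libraries held 15553627 to 17833464 fragments assigned to genes. Ogt, the inhibited enzyme, was at 24.7 to 28.5 FPKM in RA_OGTi, against 19.6 to 25.3 FPKM in RA_control. In undifferentiated cells it was at 39.9 to 41.4 FPKM in mESC_OGTi, against 16.4 to 20.2 FPKM in mESC_control. Mgea5, which encodes the enzyme that removes O-GlcNAc, was at 7.39 to 9.56 FPKM in RA_OGTi, against 43.3 to 48.2 FPKM in RA_control, and at 9.16 to 9.81 FPKM in mESC_OGTi, against 36.1 to 38.1 FPKM in mESC_control. Its level thus parted every library labelled with the inhibitor from every library labelled without it. The stem cell label was met: the summed level of 10 core pluripotency genes was 2409 to 2476 FPKM in mESC_OGTi and 2742 to 2756 FPKM in mESC_control, and the lowest value of Zfp42, Klf2 or Esrrb in any of the 6 mESC libraries was 151 FPKM, for Esrrb. Of 8 fibroblast or feeder markers, Dcn was listed at 0 in all 12 libraries and Col3a1, Postn and Lum were under 1 FPKM in all of them. The other 4 were present, with group means of 6.69 to 9.96 FPKM for Thy1, 4.82 to 11.2 FPKM for Pdgfrb, at least 0.947 FPKM for Col1a1, higher in both RA groups, and 0.0665 to 1.16 FPKM for Col1a2.

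Promoter sequence from RefSeq (build GRCm38.p6), from 250 bases before the start site to 50 bases from it, was held for 6 of the 10 genes, with 2 entries for Esrrb. Klf5, Tbx3, Prdm14 and Dppa3 had no entry. The 5 below are shown because these genes span the patterns described in the results. Esrrb was higher after RA with the inhibitor, Klf2, Zfp42 and Tcl1 were lower, and Tfcp2l1 was higher with the inhibitor in mESCs. Capitals mark a match to a searched motif. Each is given 5′ to 3′ on the gene's own strand, and lies at chr12:86360867-86361166 (plus strand, Esrrb, the upstream entry), chr8:72318812-72319111 (plus, Klf2), chr1:118627695-118627994 (plus, Tfcp2l1), chr8:43306960-43307259 (minus, Zfp42) and chr12:105222688-105222987 (minus, Tcl1).
Esrrb: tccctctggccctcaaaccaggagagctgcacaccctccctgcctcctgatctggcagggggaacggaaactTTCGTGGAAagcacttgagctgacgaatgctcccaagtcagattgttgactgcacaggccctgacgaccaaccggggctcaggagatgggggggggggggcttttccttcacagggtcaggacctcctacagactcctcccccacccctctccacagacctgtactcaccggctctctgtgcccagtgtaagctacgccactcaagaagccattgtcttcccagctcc
Klf2: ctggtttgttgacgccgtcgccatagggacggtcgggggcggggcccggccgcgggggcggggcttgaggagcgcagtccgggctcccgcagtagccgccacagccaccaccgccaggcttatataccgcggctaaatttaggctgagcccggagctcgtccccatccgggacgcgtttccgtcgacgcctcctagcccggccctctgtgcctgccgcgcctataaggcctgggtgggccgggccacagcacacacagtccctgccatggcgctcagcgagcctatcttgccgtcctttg
Tfcp2l1: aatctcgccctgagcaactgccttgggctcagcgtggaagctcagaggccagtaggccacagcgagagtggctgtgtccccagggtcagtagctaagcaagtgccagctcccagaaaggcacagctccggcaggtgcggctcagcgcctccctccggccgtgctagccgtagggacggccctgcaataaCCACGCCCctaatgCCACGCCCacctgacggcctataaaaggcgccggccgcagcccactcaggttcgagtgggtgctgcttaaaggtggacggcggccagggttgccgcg
Zfp42: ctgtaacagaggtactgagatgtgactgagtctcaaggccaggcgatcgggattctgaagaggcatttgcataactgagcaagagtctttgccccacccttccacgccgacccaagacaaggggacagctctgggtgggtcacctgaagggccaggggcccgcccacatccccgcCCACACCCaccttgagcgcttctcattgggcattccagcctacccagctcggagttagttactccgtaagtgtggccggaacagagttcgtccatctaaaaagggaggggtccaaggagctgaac
Tcl1: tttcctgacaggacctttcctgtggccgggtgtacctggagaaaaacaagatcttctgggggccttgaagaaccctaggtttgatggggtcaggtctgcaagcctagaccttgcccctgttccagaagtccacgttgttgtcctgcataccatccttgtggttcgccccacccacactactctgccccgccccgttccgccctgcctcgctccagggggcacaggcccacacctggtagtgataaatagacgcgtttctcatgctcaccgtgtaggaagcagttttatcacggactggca

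The motifs were TCAAGGTCA (ESRRB), TTCNNNGAA (STAT), GGGTGTGG or GGGCGTGG (KLF), and the retinoic acid receptor direct repeats of AGGTCA with 5 or 2 bases of any kind between them, on both strands, and no match overlapped that of another motif. The Esrrb promoter held a STAT match, TTCGTGGAA, starting at position -178 from the start site. In the Tfcp2l1 promoter, the KLF motif occurred on the opposite strand as CCACGCCC at -61 and again at -47. The Zfp42 promoter held it as CCACACCC at -75. None of the motifs was present in the windows of Klf2, Klf4 and Tcl1 or in the downstream Esrrb entry. Among all 32851 promoters of the same length, 8.30% held the STAT motif, 8.58% the KLF motif, 0.423% the ESRRB motif and 16.7% any of the 5, against 3 of the 7 entries of these genes. Each receptor repeat was in 0.00913% of promoters. GC content was 74.3% for Klf4 and 69.3% for Klf2, with 40 and 32 CpG, and 56.7% for Tcl1 with 11 CpG, beside a median of 52.7% over all promoters.

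Differentiation with RA in the absence of inhibitor lowered 9 of the 10 naive factors and raised Dppa3. By limma on log2(FPKM + 1), with p adjusted over all 14866 genes, all 10 passed the 0.05 threshold. That must be read beside a background in which 70.9% of tested genes were called, 37.2% lower and 33.7% higher as shares of all genes. The median log2 fold change of the 10 was -2.52, beside -0.035 over all genes tested. On the log2(FPKM + 1) scale 8 of 10 changed at least 2-fold. In FPKM Dppa3 did so as well, with an RA_control mean 2.13 times that of mESC_control. In bulk RNA, fewer cells in the naive state and less RNA per cell cannot be told apart.

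Esrrb (ENSMUSG00000021255, chromosome 12, 86361117 to 86521628, plus strand, GRCm38 as for all coordinates) encodes an orphan nuclear receptor of the network. It had 8.50, 8.16 and 8.13 FPKM in RA_control, against 152, 151 and 159 FPKM in mESC_control. Every RA library lay far below every mESC library, with the log2 fold change at -4.06 (SE 0.055, adjusted p = 9.11e-13), the fall of rank 5 among all tested genes. Tcl1 (ENSMUSG00000041359, chromosome 12, 105216750 to 105222793, minus strand) had 2.25, 2.49 and 3.02 FPKM in RA_control, against 51.1, 56.6 and 55.5 FPKM in mESC_control. Its fall was of similar size and also left no overlap (log2 fold change -3.95, SE 0.13, adjusted p = 4.04e-10). Zfp42 (ENSMUSG00000051176, chromosome 8, 43295063 to 43306980, minus strand), also called Rex1, is a zinc finger protein widely used as a reporter of the naive state. It had 26.1, 26.7 and 25.8 FPKM in RA_control, against 279, 293 and 279 FPKM in mESC_control. The RA libraries were again all below the mESC libraries (log2 fold change -3.39, SE 0.049, adjusted p = 1.05e-12). Prdm14 (ENSMUSG00000042414, chromosome 1, 13113457 to 13127163, minus strand), a PR-domain protein that restrains FGF signalling and DNA methylation in mESCs, had 0.716, 1.09 and 0.852 FPKM in RA_control, against 16.2, 18.6 and 20.5 FPKM in mESC_control. With only 31 to 52 fragments per RA_control library, this level was close to the filter, and the fitted change (log2 fold change -3.36, SE 0.10, adjusted p = 2.06e-10) understates that of so low a gene.

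The 3 Krüppel-like factors, which bind overlapping sets of pluripotency genes, fell to different extents. Klf4 (ENSMUSG00000003032, chromosome 4, 55527143 to 55532466, minus strand) had 7.44, 7.60 and 7.60 FPKM in RA_control, against 76.4, 74.3 and 71.3 FPKM in mESC_control. Klf5 (ENSMUSG00000005148, chromosome 14, 99298691 to 99315036, plus strand) had 28.7, 30.4 and 26.7 FPKM in RA_control, against 103, 115 and 113 FPKM in mESC_control. Klf2 (ENSMUSG00000055148, chromosome 8, 72319033 to 72321656, plus strand) had 181, 179.8 and 200.4 FPKM in RA_control, against 236, 284 and 290.0 FPKM in mESC_control. For none of the 3 did the groups overlap, but the log2 fold changes ran from -3.13 for Klf4 (adjusted p = 4.18e-11) through -1.91 for Klf5 (adjusted p = 3.18e-10) to -0.52 for Klf2 (adjusted p = 0.000122). Klf2 stayed among the abundant transcripts of RA_control cells, at 187 ± 11.5 FPKM (SD, n = 3), rank 181 of 22058 protein-coding genes.

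Tfcp2l1 (ENSMUSG00000026380, chromosome 1, 118627945 to 118685168, plus strand), a CP2-family transcription factor induced by STAT3, had 18.3, 17.8 and 17.5 FPKM in RA_control, against 56.1, 51.04 and 55.9 FPKM in mESC_control. Tbx3 (ENSMUSG00000018604, chromosome 5, 119670669 to 119684724, plus strand), a T-box factor, had 16.3, 15.7 and 14.7 FPKM in RA_control, against 43.7, 45.97 and 46.1 FPKM in mESC_control. Both fell by a similar amount without overlap, with log2 fold changes of -1.55 for Tfcp2l1 (adjusted p = 1.49e-09) and -1.48 for Tbx3 (adjusted p = 6.15e-10). Annotated antisense genes overlap Tbx3 (Tbx3os1) and Tfcp2l1 (Gm22094 and Gm28882), and the strand setting of the counting is not given, so their reads cannot be separated. Dppa3 (ENSMUSG00000046323, chromosome 6, 122626410 to 122630272, plus strand), also called Stella, protects DNA from methylation in the oocyte and germ line. It had 4.92, 6.18 and 6.49 FPKM in RA_control, against 2.71, 3.20 and 2.33 FPKM in mESC_control. It was the member that was higher in every RA_control library than in any mESC_control library (log2 fold change 0.87, SE 0.14, adjusted p = 0.000114), at 74 to 106 fragments per library in RA_control and 33 to 43 in mESC_control. Groups did not overlap for any of the 10, which was also so for 73.2% of all tested genes.

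The scaling bore on the share of all genes called in each direction with RA and on the size of the Klf2 fall, and left the direction of the 10 as it was. Rescaled to TPM, the median log2 change of all genes moved to 0.18 and 63.6% of called genes were higher, against 47.5% on the deposited scale. The log2 fold change of Klf2 was then -0.29 (adjusted p = 0.00134), and -0.29 with library-total scaling (adjusted p = 0.00237), against -0.52 as deposited, in a range of 1.44e-06 to 0.00237 for adjusted p over all its alternatives. Each member kept its direction and call in this comparison under every alternative run that gave a value, apart from the 2-fold bound, which 8 passed.

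**Figure D1:**
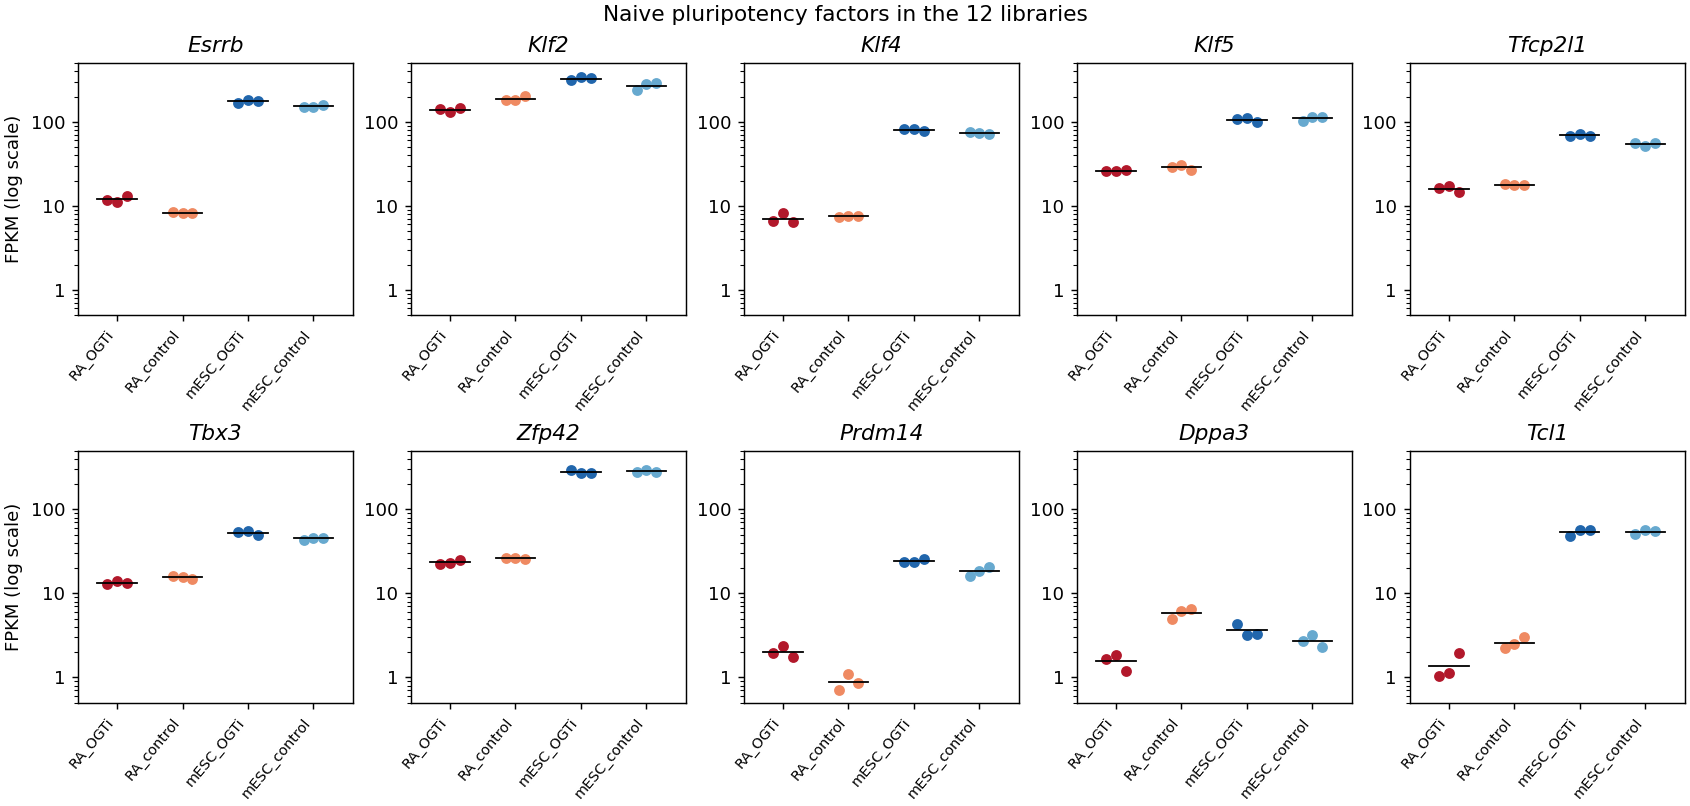
FPKM of the 10 naive factors in each of the 12 libraries (points) with group means (bars), on a shared log axis, for RA_OGTi, RA_control, mESC_OGTi and mESC_control. Apart from Dppa3, every factor is lower in all 6 RA libraries than in all 6 mESC libraries, whereas Dppa3 is highest in RA_control at 4.92 to 6.49 FPKM.

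In cells pre-treated with the inhibitor, all 10 factors fell with RA, Dppa3 included. The background was 68.7% of tested genes called, 36.7% lower and 32% higher. On the TPM scale 66.2% of called genes were higher, against 46.6% as deposited. The median log2 fold change of the 10 was -2.56, beside -0.043 over all genes tested. On the log2(FPKM + 1) scale 9 changed at least 2-fold. In FPKM Dppa3 did so as well, with a mESC_OGTi mean 2.31 times that of RA_OGTi.

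Esrrb had 11.7, 11.2 and 13.2 FPKM in RA_OGTi, against 169.6, 181 and 177 FPKM in mESC_OGTi. Tcl1 had 1.04, 1.13 and 1.97 FPKM in RA_OGTi, against 48.9, 57.1 and 56.3 FPKM in mESC_OGTi. Zfp42 had 22.5, 23.2 and 24.7 FPKM in RA_OGTi, against 296, 273 and 271 FPKM in mESC_OGTi. These were the steep falls of this comparison too, with log2 fold changes of -4.55 for Tcl1 (adjusted p = 1.58e-10), -3.76 for Esrrb (adjusted p = 1.07e-12) and -3.52 for Zfp42 (adjusted p = 8.45e-13). Prdm14 had 1.95, 2.38 and 1.75 FPKM in RA_OGTi, against 23.9, 23.5 and 25.4 FPKM in mESC_OGTi. Klf4 had 6.54, 8.21 and 6.36 FPKM in RA_OGTi, against 81.6, 82.7 and 77.5 FPKM in mESC_OGTi. Klf5 had 25.96, 25.7 and 26.5 FPKM in RA_OGTi, against 108, 112 and 98.9 FPKM in mESC_OGTi. All 3 were lower in every RA library, with log2 fold changes of -3.07 for Prdm14, -3.35 for Klf4 and -1.98 for Klf5.

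Klf2 had 142, 129.8 and 147 FPKM in RA_OGTi, against 310.5, 337 and 328 FPKM in mESC_OGTi. Tfcp2l1 had 16.1, 17.3 and 14.5 FPKM in RA_OGTi, against 67.6, 71.4 and 67.8 FPKM in mESC_OGTi. Tbx3 had 13.1, 13.9 and 13.3 FPKM in RA_OGTi, against 54.1, 54.8 and 49.9 FPKM in mESC_OGTi. Each was lower in all RA_OGTi libraries, by log2 fold changes of -1.22 for Klf2 (adjusted p = 1.08e-07), -2.05 for Tfcp2l1 (adjusted p = 2.25e-10) and -1.90 for Tbx3 (adjusted p = 1.14e-10). Dppa3 had 1.64, 1.86 and 1.20 FPKM in RA_OGTi, against 4.34, 3.21 and 3.31 FPKM in mESC_OGTi. Its RA libraries were below its mESC libraries here (log2 fold change -0.85, SE 0.14, adjusted p = 0.000146), on 20 to 31 fragments per library in RA_OGTi and 42 to 60 in mESC_OGTi. No member's groups overlapped, as for 71.9% of all tested genes, and each call held under every alternative run that gave a value, apart from the 2-fold bound.

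Expressed as the share of the mESC level still present after RA, each state taken with its own inhibitor treatment, the factors formed a wide range. Tcl1 kept 2.55% (1.92% to 3.64%) of the mESC_OGTi mean with inhibitor (range over 3 libraries) and 4.76% (4.13% to 5.55%) of the mESC_control mean without it. Esrrb kept 6.84% (6.39% to 7.51%) with inhibitor and 5.38% (5.29% to 5.53%) without. Prdm14 kept 8.34% (7.21% to 9.79%) with inhibitor and 4.80% (3.89% to 5.89%) without. These last 2 were the members whose retained share was higher with the inhibitor, and the library ranges did not overlap for either.

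Klf2 kept 42.9% (39.9% to 45.1%) with inhibitor and 69.3% (66.5% to 74.1%) without. Tfcp2l1 kept 23.2% (21.1% to 25.1%) with inhibitor and 32.9% (32.3% to 33.6%) without. Tbx3 kept 25.4% (24.8% to 26.3%) with inhibitor and 34.4% (32.5% to 35.95%) without. All 3 kept a smaller share with the inhibitor, without overlap. Dppa3 stood apart, at 43.3% (33.1% to 51.3%) with inhibitor and 213% (179% to 236%) without. Zfp42 kept 8.36% with inhibitor and 9.23% without. Klf4 kept 8.73% with inhibitor and 10.2% without. Klf5 kept 24.6% with inhibitor and 25.9% without. Klf4 and Klf5 were the pair for which the library ranges overlapped. These shares are descriptive, and the test of whether they differ is the difference of inhibitor effects given further on.

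**Figure D2:**
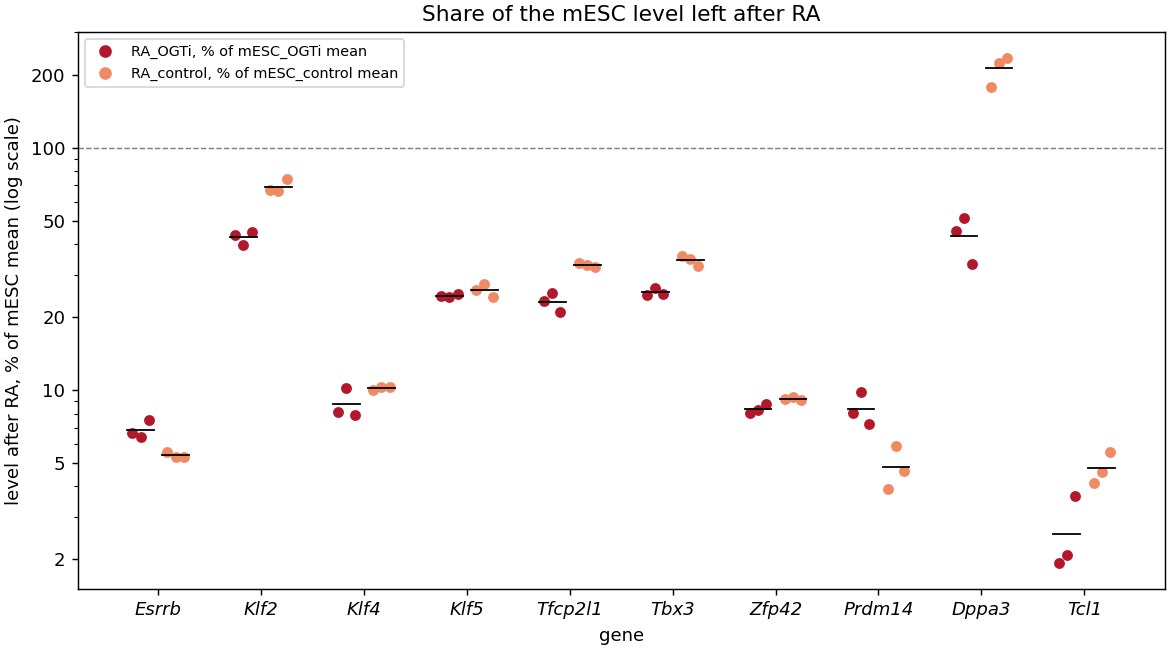
Level of each naive factor after RA as a percentage of the mean of its own undifferentiated group, on a log axis, for RA_OGTi libraries (against mESC_OGTi) and RA_control libraries (against mESC_control); points are libraries, bars are group means and the dashed line marks 100%. Dppa3 in RA_control is the only point set above the line, at 179% to 236%, and Tcl1 in RA_OGTi is the lowest.

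Among RA-treated cells, the inhibitor moved the naive factors in both directions. Prdm14 and Esrrb were higher, Dppa3, Tcl1, Klf2, Tbx3 and Zfp42 were lower, and Tfcp2l1, Klf4 and Klf5 did not pass the test. Calls thus numbered 2 higher and 5 lower of 10, beside 31.9% of all tested genes called, 17.6% higher and 14.3% lower. On the TPM scale 66.8% of called genes were higher, against 55.3% as deposited. The median log2 fold change of the 10 was -0.15, beside 0.0023 over all genes. The 3 libraries of each group did not overlap for 9 members, Klf4 being the exception, and for 44.1% of all genes.

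Prdm14 averaged 2.03 ± 0.320 FPKM in RA_OGTi and 0.885 ± 0.187 FPKM in RA_control (SD, n = 3 each), with the lowest RA_OGTi library above the highest RA_control library. Its log2 fold change was 0.68 (SE 0.10, adjusted p = 0.000529), on 84 to 114 fragments per RA_OGTi library. Esrrb averaged 12.04 ± 1.03 FPKM in RA_OGTi and 8.27 ± 0.208 FPKM in RA_control, again without overlap (log2 fold change 0.49, SE 0.055, adjusted p = 0.000109). The size for Prdm14 depended on the pseudocount, at 1.12 with 0.1 in place of 1 and 1.18 by limma-voom. In FPKM, without a pseudocount, the RA_OGTi mean was 229% of the RA_control mean for Prdm14 and 146% for Esrrb.

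Dppa3 averaged 1.57 ± 0.336 FPKM in RA_OGTi and 5.86 ± 0.835 FPKM in RA_control. All RA_OGTi libraries were lower, and on the log2(FPKM + 1) scale this was the member that passed a 2-fold bound (log2 fold change -1.42, SE 0.14, adjusted p = 3.85e-05). In FPKM Prdm14 passed it too, at 229% of the RA_control mean. Tcl1 averaged 1.38 ± 0.513 FPKM in RA_OGTi and 2.59 ± 0.394 FPKM in RA_control. The groups lay close, with RA_OGTi replicate 3 nearest to the RA_control libraries (log2 fold change -0.61, SE 0.13, adjusted p = 0.00475, and -0.96 by limma-voom). Klf2 averaged 139.6 ± 8.77 FPKM in RA_OGTi and 187 ± 11.5 FPKM in RA_control. It was the most abundant of the factors that fell, with groups well apart (log2 fold change -0.42, SE 0.082, adjusted p = 0.00268). In FPKM the RA_OGTi mean was 26.7% of the RA_control mean for Dppa3, 53.3% for Tcl1 and 74.6% for Klf2.

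Tbx3 averaged 13.4 ± 0.446 FPKM in RA_OGTi and 15.6 ± 0.795 FPKM in RA_control (log2 fold change -0.20, SE 0.052, adjusted p = 0.0137). Zfp42 averaged 23.4 ± 1.11 FPKM in RA_OGTi and 26.2 ± 0.453 FPKM in RA_control (log2 fold change -0.15, SE 0.049, adjusted p = 0.0326). Both falls were small, at -0.23 to -0.16 for Tbx3 and -0.19 to -0.11 for Zfp42 over all alternatives, and their calls depended on the scaling and on single libraries. On the TPM scale neither passed (adjusted p = 0.123 for Tbx3 and 0.187 for Zfp42). Zfp42 also lost its call with library-total scaling (adjusted p = 0.0552), the compared groups only (0.0719), no variance trend (0.0516) and limma-voom (0.0673). With single libraries left out, the adjusted p of Tbx3 without RA_control replicate 1 was 0.0555, without RA_OGTi replicate 1 it was 0.0531, and over all its alternatives it ranged from 0.00945 to 0.123. The call of Zfp42 was lost without RA_control replicate 1 or 2 or RA_OGTi replicate 1 or 2, at adjusted p = 0.0743 to 0.126, in a range of 0.0214 to 0.187 over all its alternatives.

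Tfcp2l1 averaged 15.98 ± 1.41 FPKM in RA_OGTi and 17.9 ± 0.376 FPKM in RA_control (log2 fold change -0.16, 95% interval -0.29 to -0.022, adjusted p = 0.073). Klf5 averaged 26.1 ± 0.407 FPKM in RA_OGTi and 28.6 ± 1.83 FPKM in RA_control (log2 fold change -0.13, 95% interval -0.26 to 0.0057, adjusted p = 0.133). Klf4 averaged 7.04 ± 1.02 FPKM in RA_OGTi and 7.55 ± 0.0905 FPKM in RA_control (log2 fold change -0.10, 95% interval -0.26 to 0.065, adjusted p = 0.352). RA_OGTi replicate 2 was the highest of its group for Tfcp2l1 and Klf4, and without it both passed, Tfcp2l1 at adjusted p = 0.0223 and Klf4 at 0.0115. Over all alternatives the adjusted p ranged from 0.0223 to 0.311 for Tfcp2l1 and from 0.0115 to 0.766 for Klf4.

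**Figure D3:**
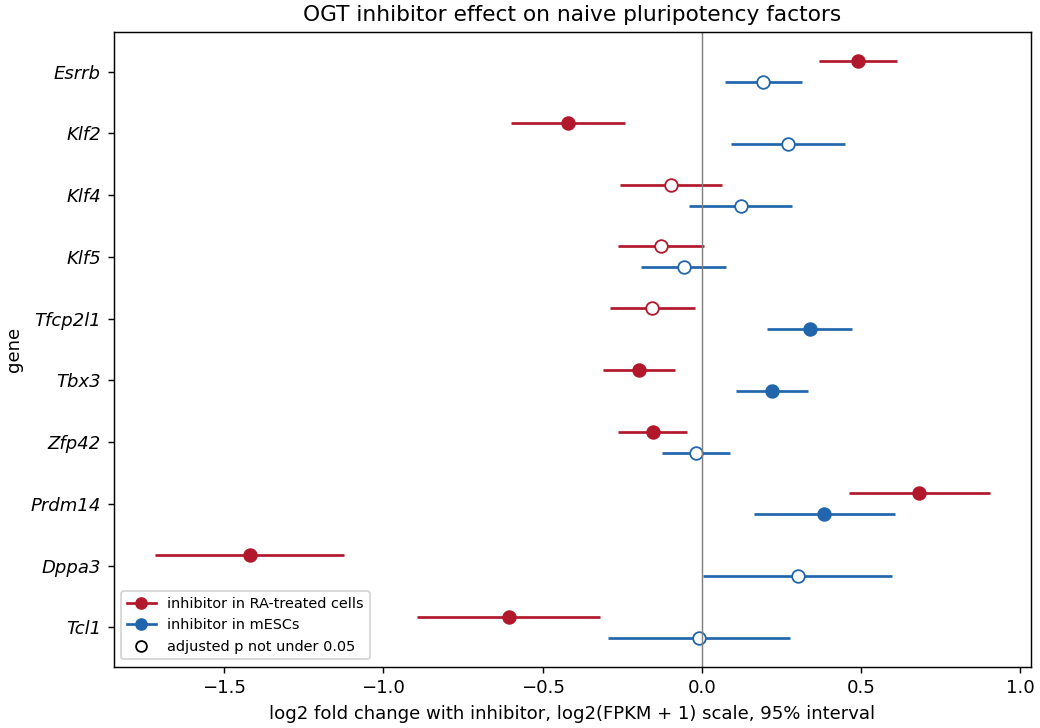
Log2 fold change with the OGT inhibitor on the log2(FPKM + 1) scale for each naive factor, in RA-treated cells and in mESCs, with 95% intervals from the fit of all 12 libraries. In RA-treated cells Prdm14 (0.68) and Esrrb (0.49) lie to the right of 0 and Dppa3 (-1.42) furthest to the left, while in mESCs the estimates run from -0.057 for Klf5 to 0.39 for Prdm14.

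In undifferentiated mESCs 3 naive factors were higher with the inhibitor and none was called lower. They were Tfcp2l1, Tbx3 and Prdm14, and the other 7 did not pass the test. The 3 calls of 10 stand beside 7.78% of all tested genes called, 4.6% higher and 3.18% lower as shares of all genes. The median log2 fold change of the 10 was 0.21, beside 0.0053 over all genes. On the deposited scale, every mESC_OGTi library was above every mESC_control library in 7 of the 10, which held for 16.4% of all genes. Klf5, Zfp42 and Tcl1 overlapped. For Dppa3 the lowest mESC_OGTi library was at 3.213 FPKM and the highest mESC_control library at 3.204 FPKM. For Klf4 these were 77.5 and 76.4 FPKM. Margins so narrow can close under another scaling.

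Tfcp2l1 averaged 68.9 ± 2.10 FPKM in mESC_OGTi and 54.3 ± 2.86 FPKM in mESC_control (SD, n = 3 each; log2 fold change 0.34, SE 0.061, adjusted p = 0.0105). Its call held under all 16 alternatives run, a 2-fold bound aside. Tbx3 averaged 52.9 ± 2.67 FPKM in mESC_OGTi and 45.3 ± 1.37 FPKM in mESC_control (log2 fold change 0.22, SE 0.052, adjusted p = 0.0277). Prdm14 averaged 24.3 ± 1.01 FPKM in mESC_OGTi and 18.4 ± 2.17 FPKM in mESC_control (log2 fold change 0.39, SE 0.10, adjusted p = 0.0408). Over all alternatives the log2 fold changes were 0.20 to 0.26 for Tbx3 and 0.30 to 0.46 for Prdm14. With every library kept, the call of Tbx3 was lost on the TPM scale (adjusted p = 0.0841), with library-total scaling (0.0609) and in the fit of the compared groups only (0.0606). That of Prdm14 was lost with a pseudocount of 0.1 (adjusted p = 0.11), no filter (0.0967), TPM (0.102) or library-total scaling (0.0576), the compared groups only (0.0614) and no variance trend (0.0502). With single libraries left out, Tbx3 passed without mESC_OGTi replicate 3 and for no other library (adjusted p = 0.0534 to 0.109), and Prdm14 passed without mESC_control replicate 3 and for no other library (adjusted p = 0.0788 to 0.138). Over all alternatives adjusted p ranged from 0.0133 to 0.109 for Tbx3 and from 0.00393 to 0.138 for Prdm14.

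Esrrb averaged 176 ± 5.80 FPKM in mESC_OGTi and 154 ± 4.27 FPKM in mESC_control, without overlap but short of the threshold (log2 fold change 0.19, 95% interval 0.072 to 0.32, adjusted p = 0.0561). Klf2 averaged 325 ± 13.5 FPKM in mESC_OGTi and 270.3 ± 29.5 FPKM in mESC_control (log2 fold change 0.27, 95% interval 0.092 to 0.45, adjusted p = 0.0655), with mESC_control replicate 1 below the other 5 libraries. Both passed when the filter was raised to a mean of 5 FPKM, at adjusted p = 0.0422 for Esrrb and 0.044 for Klf2. They also passed on the TPM scale (0.0336 for Esrrb and 0.0202 for Klf2) and with library-total scaling (0.042 and 0.0444). By limma-voom adjusted p was 0.0301 for Esrrb and 0.0207 for Klf2. On the TPM scale the called factors were thus Tfcp2l1, Esrrb and Klf2, in place of Tfcp2l1, Tbx3 and Prdm14. The ranges over all alternatives were 0.0301 to 0.179 for Esrrb and 0.0202 to 0.2 for Klf2. Klf4 had a log2 fold change of 0.12 (95% interval -0.039 to 0.28) and Dppa3 of 0.30 (0.0043 to 0.60). Their groups were narrowly apart on the deposited scale. Klf5 had a log2 fold change of -0.057 (-0.19 to 0.077), Zfp42 of -0.018 (-0.13 to 0.09) and Tcl1 of -0.0095 (-0.30 to 0.28), and their libraries were intermixed.

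The inhibitor's effect differed between RA-treated cells and mESCs for 5 of the 10 factors, 1 upward and 4 downward, beside 7.69% of all tested genes, 3.9% upward and 3.79% downward. On the TPM scale 61.4% of called genes were higher, against 50.7% as deposited. This was tested as the inhibitor's log2 fold change in RA-treated cells minus that in mESCs. Dppa3 had the largest difference, at -1.72 (SE 0.19, adjusted p = 0.000644), from -1.42 in RA-treated cells and 0.30 in mESCs. Klf2 followed at -0.69 (adjusted p = 0.0062), with -0.42 in RA-treated cells and 0.27 in mESCs. Tfcp2l1 differed by -0.49 (adjusted p = 0.0075), with -0.16 in RA-treated cells and 0.34 in mESCs. For these 3 the estimates had opposite signs in the 2 states. Tbx3 did so too, with -0.20 in RA-treated cells and 0.22 in mESCs (difference -0.42, adjusted p = 0.00761). It was the single member called in both states with opposite directions. Neither of these 2 calls held on the TPM scale (adjusted p = 0.123 in RA-treated cells and 0.0841 in mESCs).

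Esrrb was higher with the inhibitor by both estimates, at 0.49 in RA-treated cells and 0.19 in mESCs, and the difference of 0.30 just passed (adjusted p = 0.0422). That call was kept without RA_OGTi replicate 2 and lost on leaving out any other single library, at adjusted p = 0.0569 to 0.0933. With every library kept, it was lost with no filter (adjusted p = 0.0721) and with no variance trend (0.0618). Over all its alternatives adjusted p ranged from 0.0121 to 0.0933. The differences of Dppa3, Klf2, Tfcp2l1 and Tbx3 kept their calls in every alternative that gave a value, apart from the 2-fold bound, which Dppa3 passed. Tcl1 missed the threshold at -0.60 (SE 0.18, adjusted p = 0.0719), but passed without RA_OGTi replicate 3 (adjusted p = 0.0104), in a range of 0.0104 to 0.154 over all its alternatives. Klf4 had a difference of -0.22 (adjusted p = 0.227) and passed without RA_OGTi replicate 2 (adjusted p = 0.0188), in a range of 0.0188 to 0.451. Prdm14 rose in both states, and its difference of 0.30 did not pass (95% interval -0.015 to 0.61, adjusted p = 0.23). Zfp42 (-0.14, adjusted p = 0.259) and Klf5 (-0.071, adjusted p = 0.674) did not pass either.

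The order of the factors by level per gene length also changed with RA. In RA_OGTi the order was Klf2, Klf5, Zfp42, Tfcp2l1, Tbx3, Esrrb, Klf4, Prdm14, Dppa3 and Tcl1, with overlapping libraries between Tbx3 and Esrrb, between Prdm14 and Dppa3 and between Dppa3 and Tcl1. In RA_control it was Klf2, Klf5, Zfp42, Tfcp2l1, Tbx3, Esrrb, Klf4, Dppa3, Tcl1 and Prdm14, with no neighbours overlapping. Prdm14 was thus last in RA_control and above Dppa3 and Tcl1 by mean in RA_OGTi. In mESC_OGTi the order was Klf2, Zfp42, Esrrb, Klf5, Klf4, Tfcp2l1, Tcl1, Tbx3, Prdm14 and Dppa3, with Tcl1 and Tbx3 overlapping. In mESC_control it was Zfp42, Klf2, Esrrb, Klf5, Klf4, Tcl1, Tfcp2l1, Tbx3, Prdm14 and Dppa3, with overlap between Zfp42 and Klf2 and between Tcl1 and Tfcp2l1.

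Over the 12 libraries, 9 of the factors varied together and Dppa3 did not. Pearson's r of log2(FPKM + 1) between pairs of the 9 ran from 0.868 (Klf2 with Prdm14) to 0.998 (Klf5 with Zfp42), while r of Dppa3 with the others ran from -0.127 (Prdm14) to 0.310 (Klf2). These libraries form 2 clusters, RA-treated and undifferentiated, so r over all 12 is given as a description only. By the same measure the protein-coding genes most like Esrrb were Icam1 (0.999), Slc13a5 (0.999), Zscan10 (0.999), r in parentheses. Those most like Klf2 were Arhgef25 (0.989), Pcbp2 (0.988), Derl3 (0.988). For Prdm14 they were Fanci (0.998), Wsb2 (0.997), Tgif1 (0.997). The genes nearest to Tcl1 were Pou5f1 (0.998), Gldc (0.998), Cdc20 (0.997), the first being the core factor Pou5f1, and to Zfp42 Nphs1 (0.998), Nr0b1 (0.998), Bcl3 (0.998). Klf4 was closest to Dhx9 (0.998), Cdc5l (0.998), Gtf2h1 (0.997), Klf5 to Nphs1 (0.999), Hsd17b11 (0.998), Bcl3 (0.997), Tfcp2l1 to Ulk1 (0.997), Cbfa2t2 (0.997), Rest (0.997) and Tbx3 to Gnl3l (0.998), Ulk1 (0.997), Fzd5 (0.997). Dppa3 was closest to Hist1h3g (0.940), Hist1h1a (0.935), L1cam (0.920). Its first 2 are histone genes of families with near-identical copies and are uncertain, and all 3 were at single-digit FPKM on average in each group.

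Other genes of the network also changed in both directions. Counts for these and the lists that follow stand beside the shares of all tested genes. With the inhibitor these shares were 17.6% higher and 14.3% lower in RA-treated cells, and 4.6% higher and 3.18% lower in mESCs. With RA alone they were 33.7% higher and 37.2% lower. Of 16 other naive network genes, 4 were called higher and 6 lower with the inhibitor in RA-treated cells (median log2 fold change -0.13), 2 higher and 1 lower in mESCs (0.05), and 1 higher and 15 lower with RA alone (-1.67). In RA-treated cells Spp1, which encodes osteopontin, rose (0.76, adjusted p = 9.91e-06), as did Gdf3, a TGF-beta family ligand (0.71, adjusted p = 0.000263), and Fbxo15, a ubiquitin ligase subunit, fell (-0.51, adjusted p = 0.000208). In mESCs Gbx2, a STAT3-induced homeobox gene, fell (-0.76, adjusted p = 0.000282), whereas the adhesion molecules Pecam1 (0.36, adjusted p = 0.0053) and Jam2 (0.36, adjusted p = 0.0243) rose. With RA alone Tdh, threonine dehydrogenase, had the largest fall of the list (-5.73), followed by Nr0b1 (-3.12) and Nanog (-2.93). For Nanog the difference of inhibitor effects was -0.52 (adjusted p = 0.00327), and for Spp1 it was 0.70 (adjusted p = 0.000849).

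Of 11 LIF pathway genes, 10 were tested. With the inhibitor in RA-treated cells 1 was higher and 5 were lower, and in mESCs 2 were higher and 1 lower. With RA alone 3 were higher and 7 lower, beside 33.7% of all tested genes called higher and 37.2% lower. Pim1, a STAT3-induced kinase, averaged 71.9 ± 3.03 FPKM in RA_OGTi and 142 ± 2.28 FPKM in RA_control (-0.97, adjusted p = 3.57e-06). Socs3, the feedback inhibitor of LIF signalling, averaged 7.94 ± 0.426 FPKM in RA_OGTi and 13.8 ± 0.936 FPKM in RA_control (-0.72, adjusted p = 2.49e-05). Pim3 fell as well (-0.66, adjusted p = 9.43e-05). With RA alone Pim1 rose (1.44, adjusted p = 3.4e-09), from a mean of 51.7 FPKM in mESC_control, whereas Socs3 fell (-3.38, adjusted p = 8.96e-12). In mESCs the signalling genes Stat3 (0.19, adjusted p = 0.0281) and Il6st, the shared receptor subunit (0.20, adjusted p = 0.0314), rose and Junb fell (-0.41, adjusted p = 0.0108).

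Of 10 core pluripotency genes, 1 was higher and 6 lower with the inhibitor in RA-treated cells (median -0.19), and 1 higher and 5 lower in mESCs (median -0.15), where no naive factor was called lower. Sall4 rose in both states, by 0.48 in RA-treated cells (adjusted p = 0.000113) and 0.43 in mESCs (adjusted p = 0.00231). Tdgf1, the Nodal co-receptor, fell in both, with log2 fold changes of -1.40 in RA-treated cells (adjusted p = 5.9e-07) and -0.39 in mESCs (adjusted p = 0.0105). With RA alone 9 of the 10 fell and 1 rose, beside 37.2% of all tested genes called lower and 33.7% higher.

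Genes of the states that follow naive pluripotency were mixed. Of 13 formative and primed genes 10 were tested, with 1 higher and 3 lower with the inhibitor in RA-treated cells and 0 higher and 2 lower in mESCs, and Fgf5 and Foxd3 were under 1 FPKM in all libraries. Etv4, an ERK-responsive ETS factor, fell by 2.01 on the log2 scale in RA-treated cells (adjusted p = 3.13e-09) and by 0.76 in mESCs (adjusted p = 7.39e-05). Zic2 was the gene of this list called higher in RA-treated cells (0.58, adjusted p = 0.00135), where the list median was 0.015. Of 12 genes known to drive or accompany exit from the naive state, 10 were tested, with 2 higher and 2 lower in RA-treated cells and 3 higher and 2 lower in mESCs. The counts in RA-treated cells were near the shares of all tested genes, 17.6% higher and 14.3% lower. Among the exit genes Tcf7l1, a repressor of Esrrb and other naive genes, rose with the inhibitor in mESCs (0.33, adjusted p = 0.0376), and Etv5 fell in RA-treated cells (-0.45, adjusted p = 0.000252).

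**Figure D4:**
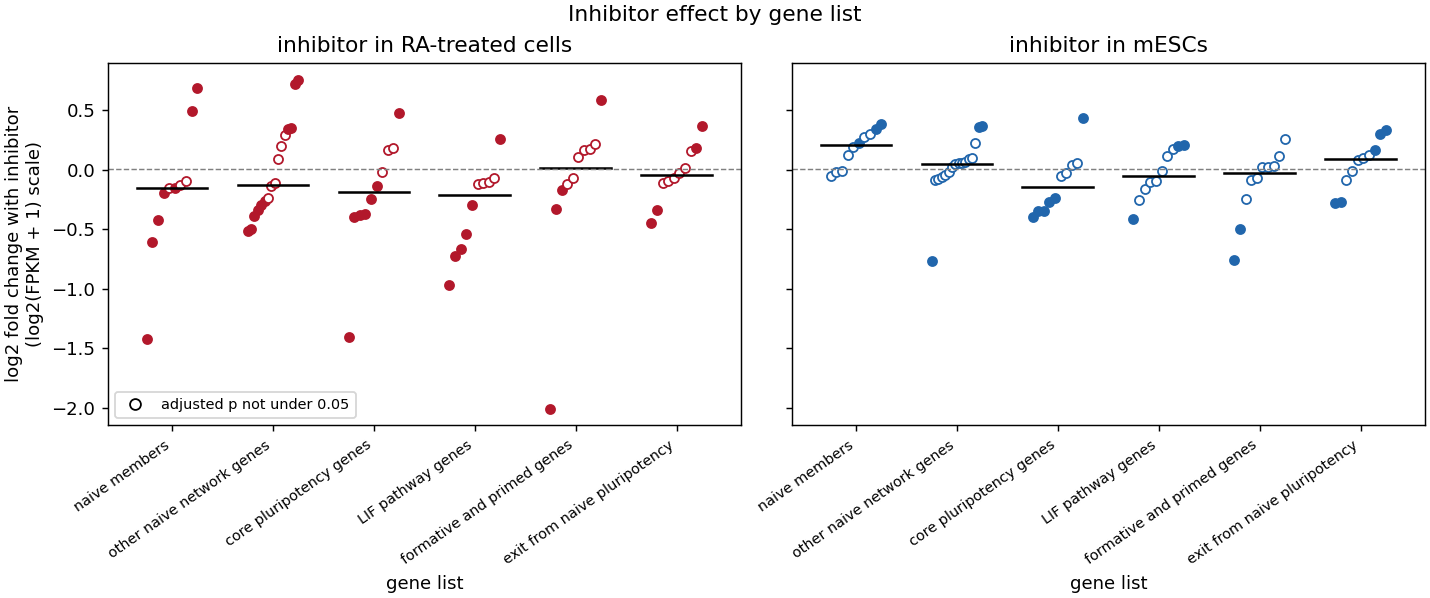
Log2 fold change with the inhibitor on the log2(FPKM + 1) scale for each tested gene of the naive factors and the neighbouring lists, in RA-treated cells and in mESCs; filled points have adjusted p under 0.05, open points do not, and bars are list medians. In RA-treated cells the naive factors spread from -1.42 to 0.68, and in mESCs from -0.057 to 0.39.

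Markers of other cell types and states were read beside the naive factors, and their part in the results above was not tested. Their counts stand beside 17.6% of all tested genes called higher and 14.3% lower with the inhibitor in RA-treated cells, and 4.6% higher and 3.18% lower in mESCs. The summed level of a list of 9 markers for 2-cell-like cells (genes of an uncommon subset of mESCs that turn on the Zscan4 family) was 75.1 to 81.9 FPKM in RA_OGTi and 105 to 115 FPKM in RA_control. It was 5.37 to 6.24 FPKM in mESC_OGTi and 7.93 to 10.98 FPKM in mESC_control, and Duxf3 was under 1 FPKM in all libraries. Of 8 tested, 0 were higher and 4 lower with the inhibitor in RA-treated cells, and 0 were higher and 3 lower in mESCs. All 8 rose with RA alone, beside 33.7% of all tested genes called higher. These genes belong to families with near-identical copies and their values are uncertain. Markers of primordial germ cells, in which Prdm14 and Dppa3 are also known to act, summed to 67.5 to 73.96 FPKM in RA_OGTi and 91.8 to 98.5 FPKM in RA_control, with 1 of 7 higher and 4 lower. Dazl fell (-0.67, adjusted p = 0.00032) and Kit rose (0.34, adjusted p = 0.000926). In undifferentiated cells the sum was 66.4 to 69.5 FPKM in mESC_OGTi and 66.4 to 70.8 FPKM in mESC_control, which overlapped, but 1 of 7 was higher and 2 were lower. Kit rose (0.41, adjusted p = 0.00302), and Ddx4 (-0.53, adjusted p = 0.00302) and Mael (-0.47, adjusted p = 0.0122) fell.

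Extraembryonic endoderm markers summed to 118 to 122 FPKM in RA_OGTi and 96.5 to 102 FPKM in RA_control, with 4 of 10 higher and 0 lower. Col4a1, Lamb1 and Lama1 made up most of the sum, at means of 48.9, 33.9 and 15.1 FPKM in RA_OGTi. Foxa2 (0.44, adjusted p = 0.0311) and Gata4 (0.35, adjusted p = 0.0112) were among those higher. Gata6, Dab2, Sox7 and Pdgfra had lower means in RA_OGTi than in RA_control, without a call. In mESC_OGTi the endoderm markers summed to 90.7 to 101 FPKM and in mESC_control to 73.9 to 79.5 FPKM. There 3 were higher, Lama1, Col4a1 and Lamb1, and 0 lower. Neural progenitor markers summed to 38.1 to 42.1 FPKM in RA_OGTi and 45.5 to 50.4 FPKM in RA_control, and Pax6 and Fabp7 were under 1 FPKM in all 12 libraries. Of the 5 tested, 0 were higher and 3 lower. The sum was 101 to 114 FPKM in mESC_OGTi and 95.2 to 105 FPKM in mESC_control, with 0 higher and 0 lower of 5. Trophoblast markers summed to 56.7 to 70.1 FPKM in RA_OGTi and 56.5 to 62.4 FPKM in RA_control, with 2 of 8 tested higher and 1 lower and Elf5 under 1 FPKM in all libraries. They summed to 54.1 to 61.2 FPKM in mESC_OGTi and 46.04 to 50.2 FPKM in mESC_control, without overlap. There Esx1 (0.39, adjusted p = 0.0328) and Tfap2c (0.35, adjusted p = 0.0178) rose and Hand1 fell (-0.52, adjusted p = 0.0334). Fibroblast or feeder markers summed to 22.2 to 23.5 FPKM in RA_OGTi and 21.1 to 23.8 FPKM in RA_control, with Col1a2 higher (0.31, adjusted p = 0.0267) among 4 tested. The sum was 14.3 to 16.2 FPKM in mESC_OGTi and 15.4 to 16.6 FPKM in mESC_control, with 0 higher and 0 lower of 4. Between RA_OGTi and RA_control, the sums of the 2-cell-like, germ cell, endoderm and neural lists did not overlap, and those of the trophoblast and fibroblast lists did. Between mESC_OGTi and mESC_control, the sums of the 2-cell-like, endoderm and trophoblast lists did not overlap, and those of the germ cell, neural and fibroblast lists did.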

How the data were processed

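RNA from 12 libraries of R1 mESCs was extracted with TRIzol and sequenced from an NEBNext Ultra RNA kit, per the labels' protocols. The authors deposited FPKM per gene with gene lengths and coordinates, and per the submitters' processing notes HISAT2 2.0.5, featureCounts 1.5.0 and GRCm38 were used. How FPKM were calculated, which filters applied and whether strand was used is not stated there. FPKM were multiplied by length and divided by a unit fitted for each library from its own values. This returned whole fragments for 100% of values above 0 (tolerance 0.02). The 15553627 to 17833464 fragments per library recovered in this way set the precision. The deposited FPKM already carry a scaling proportional to median-of-ratios size factors, with 0.883 to 0.934 fragments per implied fragment in RA libraries and 1.06 to 1.11 in mESC libraries. No 2 replicates agreed within sampling noise (chi-square per gene 3.74 to 9.96).

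All 12 libraries entered a single limma fit (limma 3.58.1, R 4.3.3) of log2(FPKM + 1) with a variance trend. Tests were two-sided at 0.05, Benjamini-Hochberg adjusted over the 14866 genes that reached 1 FPKM in 3 or more libraries. Fold changes on this scale, to which the 2-fold bound was also applied, understate the change of low genes. Comparisons that share libraries are not independent. The 5 comparisons were the inhibitor in RA-treated cells and in mESCs, RA with and without inhibitor, and the difference of inhibitor effects. The members, the 11 other gene lists and the tests were chosen with earlier results of these data known. Named were all members, up to 3 called genes per list and comparison with the largest change, of which only some are printed, and the 3 protein-coding genes most alike to each member. Alternative settings comprised no filter, a filter at a mean of 5 FPKM, a pseudocount of 0.1, median-of-ratios, TPM and (chosen after seeing the data) library-total scaling, the compared groups only, no variance trend, a replicate block, limma-voom on recovered fragments, a 2-fold bound, and leaving out each library. Scripts were tested on simulated data. Summaries and figures used Python 3.11.15, pandas 2.3.3, numpy 2.4.6 and matplotlib 3.10.9.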

Additional observations from a re-analysis of the deposited data

Results flagged for a closer look

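For 5 naive factors the inhibitor's effect in RA-treated cells differed from its effect in mESCs by a test of the difference itself. The differences, RA-treated cells minus mESCs on the log2(FPKM + 1) scale, were -1.72 for Dppa3, -0.69 for Klf2, -0.49 for Tfcp2l1, -0.42 for Tbx3 and 0.30 for Esrrb. The difference for Esrrb lost its call in 11 of 12 fits that left out 1 library, all but the one without RA_OGTi replicate 2. It also lost its call with no filter and with no variance trend. The estimate for Dppa3 rests on few fragments, 20 to 31 per library in RA_OGTi and 74 to 106 in RA_control.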

How the results depend on the processing

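Over 845 alternative values of the 50 results on the naive factors, 777 kept their direction and side of the threshold, 44 lost a call, 18 gained one and 6 turned direction. The 6 were uncalled in mESCs: Tcl1 on the TPM scale (0.00010) and without mESC_control replicate 2 (0.019), mESC_control replicate 3 (0.0056) or mESC_OGTi replicate 1 (0.061), and Zfp42 without mESC_control replicate 2 (0.0066) or mESC_OGTi replicate 3 (0.0051). Leaving out single libraries, they ran from -0.053 to 0.061 for Tcl1 and from -0.058 to 0.0066 for Zfp42. In mESCs the 1157 genes called became 664 with no filter, 512 with the compared groups only and 9 at 2-fold, and the 3 naive factors called became 5 with the stricter filter, 5 by limma-voom, 1 with the compared groups only and 0 at 2-fold. Leaving out single libraries gave 361 to 818 genes and 1 to 2 factors, the genes falling past 1.5 times without mESC_control replicate 1 (489) or 2 (430) and mESC_OGTi replicate 2 (361) or 3 (535). For the inhibitor in RA-treated cells, 4738 genes became 3145 with the stricter filter and 123 at 2-fold, 7 factors became 1 at 2-fold, and leaving out libraries gave 3594 to 4323 genes and 5 to 8 factors. For RA with inhibitor, 10209 genes became 6046 with the stricter filter, which tests fewer genes, and 2019 at 2-fold (9616 to 9892 without single libraries). For RA without inhibitor, 10534 became 6161 and 2080 (9947 to 10202 without single libraries), and in both all 10 factors stayed called apart from the 2-fold bound. For the difference of effects, 1143 genes became 72 and 5 factors 1 at 2-fold, while leaving out libraries gave 638 to 1032 genes and 4 to 6 factors, past 1.5 times without mESC_control replicate 2 (744), mESC_OGTi replicate 2 (705), RA_control replicate 1 (726) or RA_OGTi replicate 1 (638). For the other shifts the cause was not tested. Dppa3 had no value under the stricter filter.

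The labels do not say whether replicate numbers pair the samples. Deviations of same-numbered libraries correlated at -0.0213 to 0.123, beside -0.183 to 0.134 for different numbers, and such overlapping ranges cannot decide it. With the replicate number as a block, 1145 genes were called for the inhibitor in mESCs, 4879 in RA-treated cells, 10295 for RA with inhibitor, 10625 for RA without it and 1224 for the difference. Among the naive factors the block added Klf2 in mESCs (adjusted p = 0.0472) and the difference for Tcl1 (adjusted p = 0.0257). Depth limits Dppa3, Prdm14 and Tcl1, which had as few as 20, 31 and 38 fragments in a library.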
